A study of Mus musculus with 30 samples.

Results

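Matrix metalloproteinases (Mmp2, Mmp3, Mmp8, Mmp9, Mmp12 and Mmp13) and the secreted inhibitors Timp1 and Timp2 were followed by RNA-seq across whole B16 melanoma tumors that secreted different interferon-α (IFNα) subtypes. The 8 genes are a named subset of both families, picked with earlier results of these data known, and all 8 were found among the 39676 genes of the count table. The 30 tumors comprised 10 B16-GFP tumors, 10 B16-IFNA4 tumors and 10 B16-IFNA9 tumors, each harvested on day 8 after subcutaneous injection into young adult female C57BL/6 mice that were otherwise untreated. B16 is a C57BL/6 melanoma line. B16-IFNA4 and B16-IFNA9 cells carried a retroviral vector in which a viral long terminal repeat drives IFNα4 or IFNα9 together with GFP, whereas B16-GFP cells carried the GFP vector without an interferon. Cells of all types, the controls included, also carried herpes simplex virus glycoprotein B with a cyan fluorescent protein, and luciferase with puromycin resistance. The lines were sorted for GFP and CFP fluorescence, whether they were pools or clones is not given in the sources used here, and a tumor type stands for 1 transduced line grown in 10 tumors. Because entire tumors were lysed, the RNA came from melanoma cells and host cells together, and fewer cells of a type cannot be told apart from less RNA per cell.

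Matrix metalloproteinases (MMPs) are zinc-dependent endopeptidases that are mostly secreted as inactive proenzymes and cleave extracellular matrix, growth factors and chemokines. The tissue inhibitors of metalloproteinases (TIMPs) bind the active site of the enzymes. In tumors, MMPs are made by fibroblasts, macrophages and neutrophils as well as by cancer cells, and many of their genes share AP-1 and ETS motifs near the transcription start. RNA levels report neither secretion, proenzyme cleavage nor inhibition.

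Tumors had 14598517 to 19788383 counts each, and the median depth was 16712970.5. The summed level of the melanocyte markers with a row in the table (Tyr, Tyrp1 and Mitf) ran from 7223.79 to 22850.1 CPM (counts scaled to a common library size) in B16-GFP tumors, from 2159.77 to 3635.4 in B16-IFNA4 tumors and from 3371.32 to 8928.47 in B16-IFNA9 tumors, so melanocyte markers were present in every tumor. The leukocyte gene Ptprc ran from 19.6 to 118 CPM, from 292 to 768 CPM and from 161 to 475 CPM in the same order. B16-GFP tumor 7 stood apart, with the highest melanocyte sum (22850 CPM against 7224 to 13058 in the other B16-GFP tumors), the lowest fibroblast sum (2350 against 4647 to 10341) and the lowest macrophage sum (454 against 859 to 2116). That tumor also held the lowest level of Mmp2, Mmp3, Mmp9, Mmp12, Mmp13 and Timp2 among the B16-GFP tumors.

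Per kilobase of exon, both inhibitors had higher mean levels than each protease in all 3 tumor types, though not always beyond the spread. In B16-GFP tumors Timp1 averaged 125 ± 26.9 CPM per kb (SD, n = 10) and Timp2 123 ± 33.8, a pair that did not differ beyond the spread. Timp2 lay above Mmp2 in 10 of 10 B16-GFP tumors, but their means lay within the spread. Mmp2, a gelatinase that cleaves denatured collagen and basement membrane collagen, averaged 67.5 ± 23.2 CPM per kb and Mmp3, the broad-specificity stromelysin-1, 52.4 ± 17.0, again without separation from each other. A wide gap followed. Mmp9, the second gelatinase, averaged 4.71 ± 4.67 CPM per kb in B16-GFP tumors, Mmp12, the macrophage metalloelastase, 2.22 ± 1.11, and Mmp13, an interstitial collagenase, 0.862 ± 0.393. Mmp8, the neutrophil collagenase, was lowest with 0.192 ± 0.109 CPM per kb.

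The 3 lowest ranks above Mmp8 changed places between tumor types. In B16-IFNA4 tumors Mmp13 averaged 3.68 ± 1.68 CPM per kb, Mmp9 2.30 ± 1.12 and Mmp12 2.17 ± 0.658, and neither neighboring pair differed beyond its spread. In B16-IFNA9 tumors Mmp12 came first of them with 3.80 ± 0.868 CPM per kb, then Mmp9 with 2.59 ± 0.548 and Mmp13 with 2.15 ± 0.894, likewise without separation of neighbors. At the top, Timp2 averaged 147 ± 17.3 CPM per kb in B16-IFNA9 tumors and Timp1 95.9 ± 20.6, and Timp2 was the higher of the pair in 9 of 10 tumors, against 4 of 10 B16-GFP tumors and 6 of 10 B16-IFNA4 tumors. In B16-IFNA9 tumors Timp1 and Mmp2 (94.5 ± 10.5 CPM per kb) were not separated, with Timp1 above Mmp2 in 5 of 10 tumors. Length was the union of annotated exons, which for Mmp12 is 7237 bases because of several transcript forms, so its per-kilobase level is a low estimate where shorter forms are used.

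**Figure D1:**
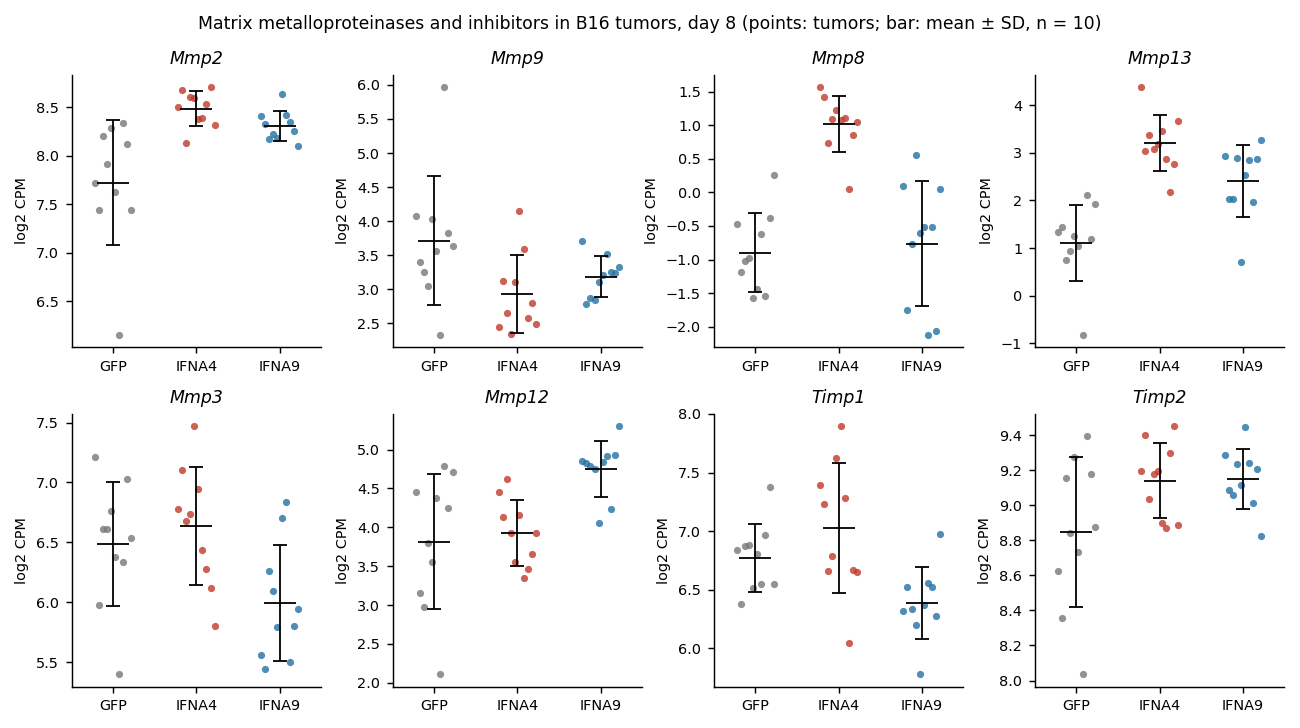
Level of each gene in log2 CPM (vertical axis) in every tumor of the 3 types (horizontal axis). Points are tumors and bars are the mean ± SD over 10 tumors. For Mmp13 the 10 B16-IFNA4 points lie above all B16-GFP points, and in Mmp9 a single B16-GFP tumor stands at 5.97, above the range of 2.33 to 4.07 of the others.

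The tumor types were compared for every gene that averaged 10 or more counts, 15926 genes in all, with the quasi-likelihood test of edgeR and p-values adjusted across all of them by Benjamini and Hochberg, and a gene was called at an adjusted p under 0.05. All 8 genes passed the count filter, Mmp8 through its B16-IFNA4 tumors (median 34.5 counts, against 6 in B16-GFP and 9.5 in B16-IFNA9 tumors). In B16-IFNA4 against B16-GFP tumors, 4 of the 8 were called, where 65.4% of all genes tested were. Mmp2, Mmp8 and Mmp13 were the 3 that rose (31.3% of all genes did) and Mmp9 the one that fell (34.1% of all genes). In B16-IFNA9 against B16-GFP tumors 5 of 8 were called, against 55.7% of all genes, with Mmp2, Mmp12 and Mmp13 higher (background 26.9%) and Mmp3 and Mmp9 lower (background 28.9%). These 2 comparisons share the B16-GFP tumors. Between the interferon types, 4 of 8 were called in B16-IFNA9 against B16-IFNA4 tumors, against 17.8% of all genes, with Mmp12 higher (background 10.5%) and Mmp3, Mmp8 and Timp1 lower (background 7.25%). A fit of those 20 tumors alone called 5 of 8, where it called 4338 of the 15926 genes. Scaled by library totals in place of TMM (the trimmed mean of M-values), the genes called went from 4977 higher and 5435 lower to 5413 and 4758 in B16-IFNA4 against B16-GFP tumors, from 4281 and 4595 to 5052 and 3608 in B16-IFNA9 against B16-GFP tumors, and from 1679 and 1154 to 2030 and 916 between the interferon types. With those totals 6, 5 and 3 of the 8 genes were called in the same order. The median log2 fold change of the 8 genes was 0.29, 0.30 and -0.41 in the 3 comparisons, beside 0.01, 0.00 and -0.01 over all genes tested. With so many genes called against B16-GFP, the members' shares of calls in the first 2 comparisons stand near the background. A single gene, Mmp13, had tumor values that did not overlap between B16-IFNA4 and B16-GFP tumors (18.5% of all genes tested), and no gene of the 8 did so in B16-IFNA9 against B16-GFP (7.79%) or B16-IFNA9 against B16-IFNA4 tumors (2.83%).

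**Figure D2:**
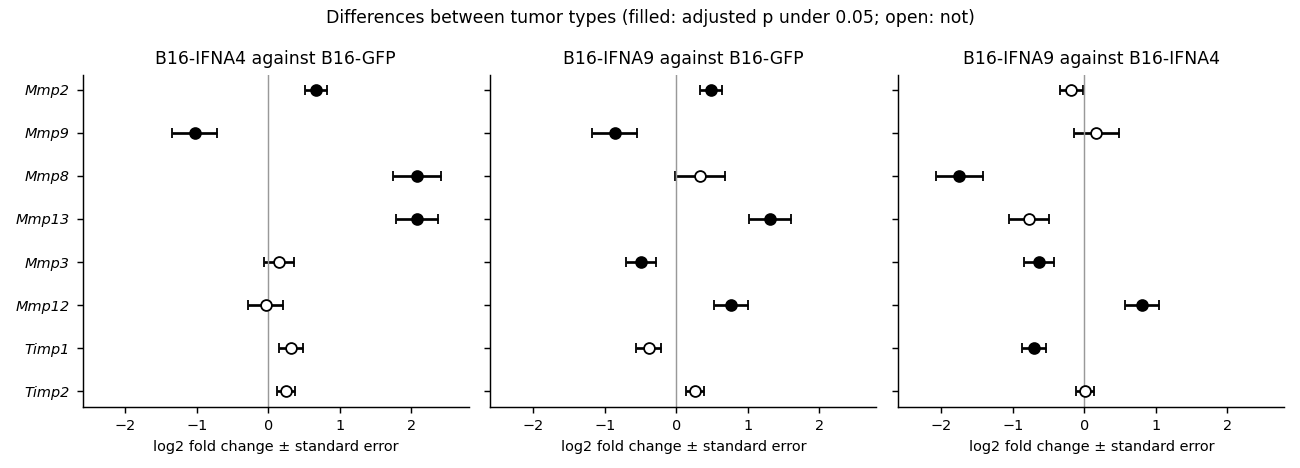
Log2 fold change (horizontal axis) with its standard error for each of the 8 genes in the 3 comparisons between tumor types, each from 10 tumors a type. Filled circles passed an adjusted p of 0.05. Mmp8 and Mmp13 lie farthest to the right in B16-IFNA4 against B16-GFP tumors, with 2.08 for each, and Mmp8 farthest to the left in B16-IFNA9 against B16-IFNA4 tumors with -1.75.

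Among the collagenases, which cut the triple helix of fibrillar collagen, Mmp13 was called against the control in both interferon types. Its level ran from 0.447 to 4.19 CPM in B16-GFP tumors (median 2.21), from 4.44 to 20.8 in B16-IFNA4 tumors (median 8.65) and from 1.51 to 9.48 in B16-IFNA9 tumors (median 6.41). Every B16-IFNA4 tumor lay above every B16-GFP tumor, and 6 of 10 B16-IFNA9 tumors did so. Mmp13 rose 4.23-fold in B16-IFNA4 against B16-GFP tumors (log2 fold change 2.08, SE 0.30, edgeR adjusted p = 5.6e-07) and 2.47-fold in B16-IFNA9 against B16-GFP tumors (1.31, SE 0.29, adjusted p = 0.00043). Between the interferon types, B16-IFNA9 tumors lay 0.77 lower on the log2 scale, with a 95% interval from -1.35 to -0.20 and an edgeR adjusted p of 0.054, which missed the threshold, whereas DESeq2 called it (-0.79, adjusted p = 0.028). Within types, B16-IFNA9 tumor 5 was the lowest of its type in Mmp13 and Mmp12. It also had the lowest Ptprc level (161 CPM against 241 to 475) and the highest skeletal muscle marker sum (12023 CPM against 1592 to 4906) of the B16-IFNA9 tumors, whose part in the low value was not tested.

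Mmp8 was scarce in all types, and its values rest on few reads. Counts ran from 4 to 17 in B16-GFP tumors (median 6), from 16 to 50 in B16-IFNA4 tumors (median 34.5) and from 2 to 25 in B16-IFNA9 tumors (median 9.5). In 9 of 10 B16-IFNA4 tumors Mmp8 exceeded all B16-GFP tumors in CPM, whereas the ranges of B16-IFNA9 and B16-GFP tumors lay over each other. Mmp8 rose 4.24-fold in B16-IFNA4 against B16-GFP tumors (log2 fold change 2.08, SE 0.34, edgeR adjusted p = 4.1e-06). In B16-IFNA9 against B16-GFP tumors the log2 fold change was 0.33, with an interval from -0.39 to 1.06 and an edgeR adjusted p of 0.43. Directly compared, Mmp8 was 3.36-fold lower in B16-IFNA9 than in B16-IFNA4 tumors (-1.75, SE 0.33, edgeR adjusted p = 0.00032).

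Neutrophil and monocyte markers are given beside Mmp8, since neutrophils store its protein. The sum of 8 neutrophil markers was low in all types, from 8.75 to 43.9 CPM in B16-GFP tumors, from 38.3 to 77.7 in B16-IFNA4 tumors and from 21.8 to 43.9 in B16-IFNA9 tumors. Among them, the granule protein gene Mpo had no count in any B16-IFNA4 tumor. Of the 5 neutrophil markers tested, 1 rose in B16-IFNA4 against B16-GFP tumors, the receptor gene Csf3r (log2 fold change 2.01, SE 0.23, edgeR adjusted p = 9.5e-09). The calprotectin genes S100a8 and S100a9 fell in the same comparison, by 0.72 each on the log2 scale. In B16-IFNA9 against B16-GFP tumors Csf3r rose by 1.23 (SE 0.22), S100a8 fell by 1.14 and S100a9 fell by 1.88. In B16-IFNA9 against B16-IFNA4 tumors 2 of the 5 were lower, Csf3r (-0.78, SE 0.22, edgeR adjusted p = 0.012) and S100a9 (-1.16, SE 0.32, adjusted p = 0.010). The 6 monocyte markers summed to 175 to 556 CPM in B16-GFP tumors, 1253 to 2417 in B16-IFNA4 tumors and 677 to 1574 in B16-IFNA9 tumors. All 6 rose in B16-IFNA4 against B16-GFP tumors, 5 of 6 rose in B16-IFNA9 against B16-GFP tumors, and 4 of 6 were lower in B16-IFNA9 than in B16-IFNA4 tumors. The part of either cell type in the Mmp8 level was not tested.

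The gelatinases moved in opposite directions. Mmp2 ran from 70.9 to 322 CPM in B16-GFP tumors (median 226), from 281 to 418 in B16-IFNA4 tumors (median 366) and from 274 to 397 in B16-IFNA9 tumors (median 314). All 10 tumors of each interferon type lay above the B16-GFP median, although the ranges overlapped. Mmp2 was 1.59-fold higher in B16-IFNA4 (log2 fold change 0.67, SE 0.16, edgeR adjusted p = 0.00051) and 1.40-fold higher in B16-IFNA9 tumors (0.49, SE 0.16, adjusted p = 0.0097) than in B16-GFP tumors. The interferon types differed by -0.18, with an interval from -0.50 to 0.14 and an edgeR adjusted p of 0.47. The 8 fibroblast markers with a row summed to 2350 to 10341 CPM in B16-GFP tumors, 5255 to 9069 in B16-IFNA4 tumors and 5654 to 8995 in B16-IFNA9 tumors. Of these 8, 3 rose and 1 fell in B16-IFNA4 against B16-GFP tumors, and 1 rose and 1 fell in B16-IFNA9 against B16-GFP tumors. Most of the fibroblast sum was Col3a1 and Col1a1, with means of 4806 and 1536 CPM in B16-GFP tumors, where the median sum was 7097. Within types, the deviations of Mmp2 from its type mean followed those of this sum with r = 0.88 over 30 tumors, and r = 0.73 without B16-GFP tumor 7. The macrophage sum gave r = 0.85 and 0.66, and the keratinocyte sum r = 0.75 and 0.42, in the same order. These points share library, depth and scaling.

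Mmp9 ran from 4.91 to 62.6 CPM in B16-GFP tumors (median 12.0), from 4.99 to 17.7 in B16-IFNA4 tumors (median 6.52) and from 6.81 to 12.9 in B16-IFNA9 tumors (median 9.25). The top value belonged to B16-GFP tumor 8, and no tumor of either interferon type lay outside the B16-GFP range. Mmp9 fell by 1.03 on the log2 scale in B16-IFNA4 against B16-GFP tumors (SE 0.31, edgeR adjusted p = 0.0051) and by 0.86 in B16-IFNA9 against B16-GFP tumors (SE 0.31, adjusted p = 0.020). Both values lean on that tumor. Without B16-GFP tumor 8 the differences shrank to -0.51 (edgeR adjusted p = 0.044) and -0.34 (adjusted p = 0.19), and the second call was lost. In that tumor, the neutrophil sum of 26.0 CPM and macrophage sum of 2031 CPM lay within the range of the other B16-GFP tumors. Between the interferon types, the log2 difference was 0.17 with an interval from -0.47 to 0.81 and an edgeR adjusted p of 0.76.

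Mmp3, which also cleaves and activates other proMMPs, ran from 42.1 to 148 CPM in B16-GFP tumors (median 94.98), from 55.8 to 177 in B16-IFNA4 tumors (median 104) and from 43.3 to 115 in B16-IFNA9 tumors (median 58.6). Of the B16-IFNA9 tumors, 5 of 10 lay below all B16-IFNA4 tumors. Mmp3 was 1.56-fold lower in B16-IFNA9 than in B16-IFNA4 tumors (log2 fold change -0.64, SE 0.21, edgeR adjusted p = 0.032) and 1.41-fold lower than in B16-GFP tumors (-0.49, SE 0.21, adjusted p = 0.047). These are weak calls. The first was lost on leaving out any of 10 tumors and the second on leaving out any of 17 of the 30, and both were lost with library totals (edgeR adjusted p = 0.0502 and 0.11). In B16-IFNA4 against B16-GFP tumors the log2 difference was 0.15, with an interval from -0.28 to 0.57 and an edgeR adjusted p of 0.54. Of its 50-base sequences, 8.39% also occur in other genes, Mmp10 among them, so part of its reads may be shared with that gene.

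Mmp12, an elastase of macrophages, ran from 4.20 to 27.4 CPM in B16-GFP tumors (median 16.3), from 10.1 to 24.5 in B16-IFNA4 tumors (median 15.1) and from 16.5 to 39.3 in B16-IFNA9 tumors (median 28.3). In B16-IFNA9 tumors 8 of 10 lay above all B16-IFNA4 tumors and 7 of 10 above all B16-GFP tumors. Mmp12 was 1.75-fold higher in B16-IFNA9 than in B16-IFNA4 tumors (log2 fold change 0.81, SE 0.24, edgeR adjusted p = 0.017) and 1.70-fold higher than in B16-GFP tumors (0.77, SE 0.24, adjusted p = 0.0073). In B16-IFNA4 against B16-GFP tumors the difference was -0.04 with an interval from -0.53 to 0.45 and an edgeR adjusted p of 0.89. Mmp12 was the one gene of the 8 that was called higher in B16-IFNA9 than in B16-IFNA4 tumors. The 8 macrophage markers with a row summed to 454 to 2116 CPM in B16-GFP tumors, 979 to 1723 in B16-IFNA4 tumors and 1028 to 2050 in B16-IFNA9 tumors. Of these 8, 2 were also higher in that comparison, the scavenger receptor gene Cd163 (0.77, SE 0.26, edgeR adjusted p = 0.034) and the mannose receptor gene Mrc1 (0.73, SE 0.21, adjusted p = 0.014), and the other 6 were not called. Of the same 8, 2 rose in B16-IFNA9 against B16-GFP tumors, Cd68 (0.44, SE 0.19) and Mertk (0.42, SE 0.17), whereas Mrc1 stood at -0.05 (edgeR adjusted p = 0.86) and Cd163 did not pass (adjusted p = 0.052). Where Mmp12 was not called, in B16-IFNA4 against B16-GFP tumors, 2 of the 8 rose and 2 fell. Their part in the Mmp12 level was not tested. Mmp12 shares 157 exon bases with Mmp1b on the opposite strand, which had a mean of 1 count.

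Timp1, an inhibitor of most secreted MMPs that also acts as a growth factor, ran from 83.3 to 166 CPM in B16-GFP tumors (median 113), from 65.8 to 238 in B16-IFNA4 tumors (median 130) and from 54.7 to 126 in B16-IFNA9 tumors (median 81.5). All 10 B16-IFNA9 tumors lay below the B16-IFNA4 median, and 6 of 10 below all B16-GFP tumors. Timp1 was 1.63-fold lower in B16-IFNA9 than in B16-IFNA4 tumors (log2 fold change -0.71, SE 0.17, edgeR adjusted p = 0.0044). Against B16-GFP tumors neither type passed, with 0.32 (interval -0.03 to 0.67, edgeR adjusted p = 0.10) in B16-IFNA4 and -0.39 (interval -0.74 to -0.04, adjusted p = 0.055) in B16-IFNA9 tumors. With library totals the first passed (0.40, edgeR adjusted p = 0.044), and in the fit of the 20 tumors compared the second did (-0.38, adjusted p = 0.018). Timp1 lies within Syn1 on the opposite strand and shares no exon base with it.

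Timp2, which inhibits MMPs and also takes part in the activation of proMMP2 at the cell surface, was called in no comparison by the edgeR fit of 30 tumors with TMM scaling, in which the comparison of B16-IFNA9 with B16-GFP tumors alone had an unadjusted p under 0.05 (0.0496). It ran from 262 to 674 CPM in B16-GFP tumors (median 464), from 467 to 699 in B16-IFNA4 tumors (median 582) and from 453 to 698 in B16-IFNA9 tumors (median 573). The ranges of the 3 types lay over each other. The log2 differences from B16-GFP tumors were 0.25 (interval -0.0049 to 0.51, edgeR adjusted p = 0.079) and 0.26 (interval 0.0005 to 0.52, adjusted p = 0.082), and B16-IFNA9 and B16-IFNA4 tumors differed by 0.01 (interval -0.25 to 0.26, adjusted p = 0.98). With library totals Timp2 was called against B16-GFP tumors in both interferon types (0.32, edgeR adjusted p = 0.041, and 0.35, adjusted p = 0.031). It was also called in both with TMM when B16-GFP tumor 5 (0.30 and 0.31) or tumor 8 (0.32 in each) was left out.

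Ratios of a protease to an inhibitor were formed within each tumor as a difference of log2 CPM. Mmp2 to Timp2 averaged -1.13 ± 0.31 in B16-GFP tumors (SD, n = 10), -0.66 ± 0.13 in B16-IFNA4 tumors and -0.84 ± 0.11 in B16-IFNA9 tumors. B16-GFP values ran from -1.88 to -0.907 and B16-IFNA4 values from -0.903 to -0.48, which do not overlap by a narrow margin, while B16-IFNA9 values, from -1.01 to -0.67, overlapped both. Mmp9 to Timp1 averaged -3.06 ± 0.89, -4.09 ± 0.45 and -3.20 ± 0.38 in the same order. In B16-IFNA4 tumors this ratio ran from -4.95 to -3.46 and in B16-IFNA9 tumors from -3.73 to -2.61. These are RNA ratios per library without correction for length.

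Within tumor types, the deviations of each gene from its type mean in log2 CPM were compared over the 30 tumors, which share library, depth and scaling between the genes. The closest of the 28 pairs of members was Mmp2 with Timp2 (r = 0.87, Spearman's rho = 0.84, and r = 0.85 without B16-GFP tumor 7). Mmp12 and Mmp13 came next (r = 0.76, rho = 0.66, and r = 0.65 without that tumor). Timp1 and Timp2 did not move together (r = 0.02), and Mmp2 with Mmp13 went from r = 0.40 to -0.08 without the same tumor.

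**Figure D3:**
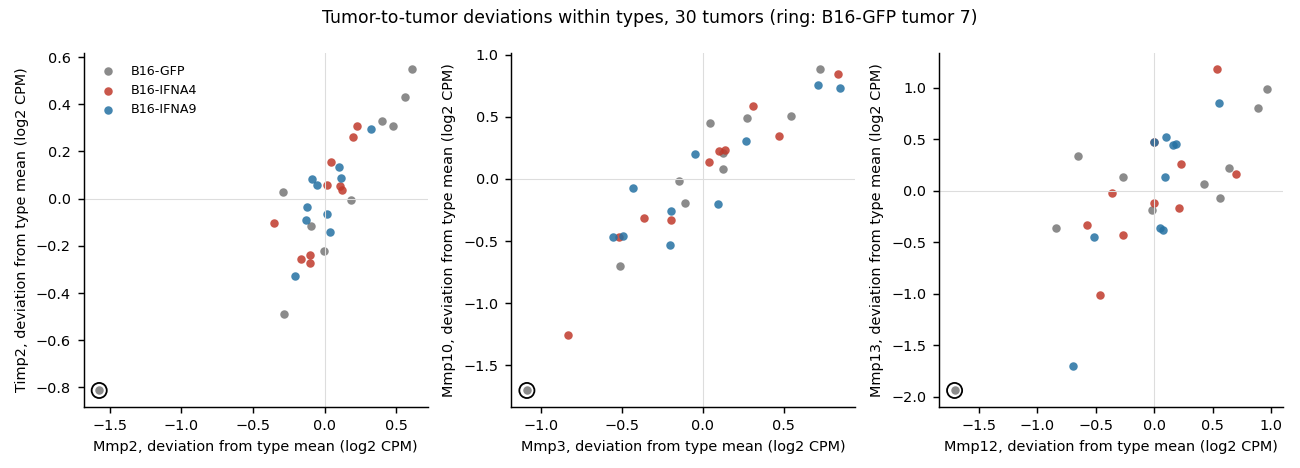
Deviation of each tumor from the mean of its type in log2 CPM, for Mmp2 and Timp2, Mmp3 and Mmp10, and Mmp12 and Mmp13 (30 tumors, colored by type). The ring marks B16-GFP tumor 7, the lowest point of its type in each panel, and the correlation coefficients are 0.87, 0.94 and 0.76. Mmp3 and Mmp10 share part of their 50-base sequences.

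Over all genes tested, the genes most alike in the same measure differed from member to member. Mmp3 was closest to Mmp10 (r = 0.94, rho = 0.95), the stromelysin-2 gene of the same cluster, then to Nox4 (r = 0.80) and Bmper (r = 0.78). Since 8.39% of the 50-base sequences of Mmp3 also occur in other genes, Mmp10 among them, and Mmp10 was far scarcer (median 10.3 CPM in B16-GFP tumors against 94.98 for Mmp3), reads of Mmp3 could make up part of the Mmp10 count, and their part in this correlation was not tested. Mmp2 was closest to Fgfr1 (r = 0.93), Rab11fip5 (r = 0.91) and Ltbp1 (r = 0.91), which fell to 0.79, 0.78 and 0.73 without B16-GFP tumor 7, when Olfml2b, Serpinf1 and Timp2 came first. Timp2 was closest to C1qtnf1 (r = 0.91), Scara5 (r = 0.88) and Pcolce2 (r = 0.87), and Timp1 to Ncam1, P4ha1 and Dennd5a (r = 0.80, 0.80 and 0.79). Mmp12 was closest to Rasal2, Dubr and Zfp9 (r = 0.87, 0.86 and 0.86) and Mmp13 to Vcan, Fgd6 and Iqgap1 (r = 0.80 for each). Without that tumor the 3 values of Mmp13 fell to 0.69, 0.70 and 0.69, and Adam9, Slc39a14 and Stk4 came first, while Adam9 entered the first 3 of Mmp12 and Plat those of Mmp9. The lower values belonged to Mmp9 with Maml1, Gm12968 and Rnf216 (r = 0.73, 0.72 and 0.71) and to the scarce Mmp8 with Tnfrsf22, Ccnyl1 and Rbmx (r = 0.70, 0.58 and 0.55).

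Of the 6 proteases, 4 lie in the MMP gene cluster of mouse chromosome 9, all on the plus strand. In GRCm38 the order is Mmp13 (chr9:7272514-7283331), Mmp12 (chr9:7344381-7369499), Mmp3 (chr9:7445822-7455975) and Mmp8 (chr9:7558456-7568485), with Mmp1b, Mmp1a and Mmp10 between them. In B16-IFNA9 against B16-IFNA4 tumors Mmp12 was higher while Mmp3 and Mmp8 were lower, and in B16-IFNA9 against B16-GFP tumors Mmp12 and Mmp13 were higher while Mmp3 was lower. Mmp2 lies on chromosome 8, Mmp9 on chromosome 2, Timp1 on chromosome X and Timp2 on chromosome 11.

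Promoter windows from RefSeq (GRCm38.p6, 250 bases before to 50 after each annotated start) matched 6 of the 8 genes, with 7 windows because Mmp12 has 2 starts. Mmp2 and Mmp9 had no window in the set of promoters used here. Windows were searched on both strands for AP-1 (TGANTCA, in 7.81% of all 32851 windows), an AP-1 variant (TGAGTAA, or TTACTCA on the other strand, 2.68%), ETS (AGGAAG or CTTCCT, 35.4%), an interferon-stimulated response element (GAAA repeated with 2 bases of any kind between, 3.44%), GAS (TTCNNNGAA, 8.30%) and a TATA sequence (TATAAA or TTTATA, 13.6%). The 120 bases before the start are printed 5′ to 3′ for the 4 cluster genes and Timp1, because these are the genes with a window that were called in at least 1 comparison, with AP-1 and ETS letters in capitals.
Mmp13 (chr9:7272394-7272513, plus strand): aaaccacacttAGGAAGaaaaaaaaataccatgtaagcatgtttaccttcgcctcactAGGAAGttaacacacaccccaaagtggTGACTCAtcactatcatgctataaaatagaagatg
Mmp3 (chr9:7445702-7445821, plus strand): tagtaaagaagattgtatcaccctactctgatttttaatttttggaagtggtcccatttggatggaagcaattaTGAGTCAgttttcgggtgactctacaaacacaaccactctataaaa
Mmp12, downstream start (chr9:7347254-7347373, plus strand): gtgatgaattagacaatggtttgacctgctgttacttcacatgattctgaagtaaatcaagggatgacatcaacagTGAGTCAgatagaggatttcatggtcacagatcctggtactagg
Mmp12, upstream start (chr9:7344277-7344396, plus strand): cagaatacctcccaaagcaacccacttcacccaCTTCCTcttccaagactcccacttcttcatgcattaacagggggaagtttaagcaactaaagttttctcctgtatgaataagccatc
Mmp8 (chr9:7558309-7558428, plus strand): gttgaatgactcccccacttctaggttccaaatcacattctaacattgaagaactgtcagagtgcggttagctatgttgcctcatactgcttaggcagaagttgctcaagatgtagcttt
Timp1 (chrX:20870046-20870165, plus strand): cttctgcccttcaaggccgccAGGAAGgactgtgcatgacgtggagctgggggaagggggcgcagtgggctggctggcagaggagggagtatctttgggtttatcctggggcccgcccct

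AP-1 letters stood 35 bases before the start in Mmp13 (TGACTCA), 46 before it in Mmp3 and 44 before the downstream start of Mmp12 (TGAGTCA in both). Mmp13 held ETS letters 109 and 62 bases before its start, and it was the one window of the 7 with the interferon-stimulated response element letters, read on the other strand as TTTCCATTTC, 146 bases before the start and outside the printed stretch. Timp1 held ETS letters 175 and 99 bases before and 41 bases after its start, and the AP-1 variant 27 bases after it. ETS letters also stood 183 bases before the start of Mmp3, 87 before the upstream start of Mmp12 and 220 before that of Mmp8. The TATA letters stood 16 bases before the annotated start in Mmp13, 7 before it in Mmp3, 3 before it on the other strand in Mmp8 and 5 after the downstream start of Mmp12. The Timp2 window held none of the letters searched, and none of the 7 windows held the GAS letters. Matches are descriptions of these letters and not bound sites.

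Beyond the 8 genes, the remaining family members and partners were counted from lists. Of 17 other MMP genes listed, 15 had a row and 9 were tested. In B16-IFNA4 against B16-GFP tumors 4 of 9 rose, where 31.3% of all genes tested did, among them Mmp27, the neighbor of Mmp8 (log2 fold change 1.14, SE 0.24, edgeR adjusted p = 0.00013), Mmp16, a membrane-type MMP (0.82), and Mmp28, or epilysin (0.74). In B16-IFNA9 against B16-GFP tumors 3 rose and 1 fell, against 26.9% and 28.9% of all genes, the one that fell being the membrane-type gene Mmp15 (-0.93, SE 0.28, edgeR adjusted p = 0.0057). In B16-IFNA9 against B16-IFNA4 tumors 1 of 9 was called (17.8% of all genes), Mmp14, the membrane-type activator of proMMP2, which fell by 0.30 on the log2 scale (SE 0.09, edgeR adjusted p = 0.021), a call that was lost with library totals. The median log2 fold change of the 9 was 0.29, 0.11 and -0.24, beside 0.01, 0.00 and -0.01 over all genes.

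Of 5 further inhibitors listed, 3 were tested, and 2 of them rose in both interferon types against B16-GFP tumors, where 31.3% of all genes rose in B16-IFNA4 and 26.9% in B16-IFNA9 tumors. Timp3, the matrix-bound TIMP, ran from 29.5 to 161 CPM in B16-GFP tumors (median 116), from 155 to 319 in B16-IFNA4 tumors (median 218) and from 131 to 322 in B16-IFNA9 tumors (median 186). Its log2 fold changes were 1.08 (SE 0.20, edgeR adjusted p = 3.5e-05) and 0.89 (SE 0.20, adjusted p = 0.00048). Reck, a membrane-anchored inhibitor of MMPs, ran from 25.7 to 53.5 CPM, from 54.1 to 74.5 and from 49.4 to 70.2 in the same order. Its B16-IFNA4 and B16-GFP ranges did not overlap by a narrow margin, as for 18.5% of all genes tested. Its log2 fold changes were 0.64 and 0.55 (SE 0.10 each). Between the interferon types 0 of the 3 were called by edgeR or DESeq2, and 0 had an unadjusted p under 0.05 in edgeR (0.35 for Timp3, 0.40 for Reck and 0.27 for Timp4).

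A list of cytokine genes linked to MMP transcription had 11 genes tested, with Tgfb1, Tgfb2 and Il4 among them. The list is not limited to inducers. In B16-IFNA4 against B16-GFP tumors 9 of 11 rose and none fell, where 31.3% of all genes tested rose and 34.1% fell. Against the same controls 5 of 11 rose in B16-IFNA9 tumors (26.9% of all genes), and in B16-IFNA9 against B16-IFNA4 tumors 4 of 11 fell (7.25% of all genes). Tnf, encoding tumor necrosis factor, rose by 2.63 (SE 0.21) and 1.68 (SE 0.20) on the log2 scale against B16-GFP tumors and was lower by -0.95 (SE 0.19, edgeR adjusted p = 0.00088) in B16-IFNA9 than in B16-IFNA4 tumors. Csf1, the macrophage growth factor gene, rose by 1.71 and 1.06, and Csf2, encoding GM-CSF, by 1.29 and 2.05. The Csf2 values rest on few reads, with 0 to 7 counts in B16-GFP, 2 to 20 in B16-IFNA4 and 9 to 30 in B16-IFNA9 tumors. Il6 and Lif, whose products signal through gp130, were each lower in B16-IFNA9 than in B16-IFNA4 tumors with -0.71 (SE 0.24 and 0.21). The median log2 fold change of the 11 was 0.73, 0.24 and -0.54, beside 0.01, 0.00 and -0.01 over all genes. Leukocyte markers rose beside them. All 6 T cell or NK cell markers rose in each interferon type against B16-GFP tumors, with a median log2 fold change of 3.17 in B16-IFNA4 and 2.79 in B16-IFNA9 tumors, and their sum ran from 3.93 to 27.7 CPM in B16-GFP tumors, from 91.4 to 244 in B16-IFNA4 tumors and from 61.6 to 171 in B16-IFNA9 tumors. Ptprc, the leukocyte gene for CD45, rose by 2.65 and 2.14, and the monocyte markers had a median of 2.34 and 1.67. In B16-IFNA9 against B16-IFNA4 tumors 1 of the 6 T cell or NK cell markers and 4 of the 6 monocyte markers were lower. The part of these cells in the cytokine levels was not tested.

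The list of transcription factors had 11 genes tested, 10 of AP-1 and ETS factors and Runx2. Of the 10 AP-1 and ETS genes, 1 rose (Jun, by 0.38) and 2 fell (Ets1 and Etv5, by 0.58 each) in B16-IFNA4 against B16-GFP tumors. In B16-IFNA9 against B16-GFP tumors 4 of the 10 fell (Fos, Fosb, Ets1 and Etv5) and 0 rose by edgeR or DESeq2, also at an unadjusted p under 0.05 in edgeR. Falls made up 34.1% and 28.9% of all genes tested in these 2 comparisons. With library totals the calls among all 11 genes of the list in B16-IFNA9 against B16-GFP tumors went from 1 higher and 4 lower to 1 higher and 2 lower. Runx2, a regulator of Mmp13 in bone and cartilage, rose by 1.40 (SE 0.16, edgeR adjusted p = 1.1e-08) and 1.15 (SE 0.16, adjusted p = 7.2e-07) against B16-GFP tumors. Fos and Jund, both AP-1 subunits, were the 2 of the 10 called between the interferon types (17.8% of all genes), and fell by 0.73 (SE 0.16) and 0.46 (SE 0.15) in B16-IFNA9 against B16-IFNA4 tumors.

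The counts of the last 4 lists are read against all genes tested, of which 31.3% rose and 34.1% fell in B16-IFNA4 against B16-GFP tumors, 26.9% rose and 28.9% fell in B16-IFNA9 against B16-GFP tumors, and 10.5% were higher and 7.25% lower in B16-IFNA9 than in B16-IFNA4 tumors. Genes of proMMP activation and the plasminogen system had 8 members tested, of which 4 rose in B16-IFNA4 against B16-GFP tumors, 1 fell in B16-IFNA9 against B16-GFP tumors and 2 fell in B16-IFNA9 against B16-IFNA4 tumors. DESeq2 called 2 in the second, 1 higher and 1 lower, and 4 in the third, all lower. Plat, encoding tissue plasminogen activator, rose by 0.51 (SE 0.15) in the first, and Serpine2, a protease inhibitor gene, fell by 0.77 (SE 0.15) in the second and by 0.98 (SE 0.15) in the third. Of 16 ADAM and ADAMTS protease genes, 5 rose and 4 fell in each interferon type against B16-GFP tumors and 1, Adamts14, was lower in B16-IFNA9 than in B16-IFNA4 tumors. Adam12 fell by 2.43 (SE 0.16) in B16-IFNA4 and by 2.05 (SE 0.15) in B16-IFNA9 tumors, whereas Adam8, a leukocyte protease gene, rose by 0.98 and 1.18 (SE 0.19 each). Of 13 matrix substrate genes, 4 rose and 4 fell in B16-IFNA4, 2 rose and 3 fell in B16-IFNA9 against B16-GFP tumors, and 1, the aggrecan gene Acan, was higher in B16-IFNA9 tumors (0 to 147 counts, median 4) than in B16-IFNA4 tumors (0 to 4 counts). Vcan, the versican gene, rose by 1.11 and 0.78 (SE 0.19 each). Of 7 binding partner genes, 3 rose and 1 fell in B16-IFNA4, 2 rose and 1 fell in B16-IFNA9 against B16-GFP tumors, and Thbs1, encoding thrombospondin-1, was lower by -0.85 (SE 0.19) in B16-IFNA9 than in B16-IFNA4 tumors. Bsg, encoding the MMP inducer basigin, fell by 0.83 and 0.80 (SE 0.12 each), and Lrp1, the endocytic receptor that clears MMP complexes, rose by 0.91 and 0.58 (SE 0.19 each).

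**Figure D4:**
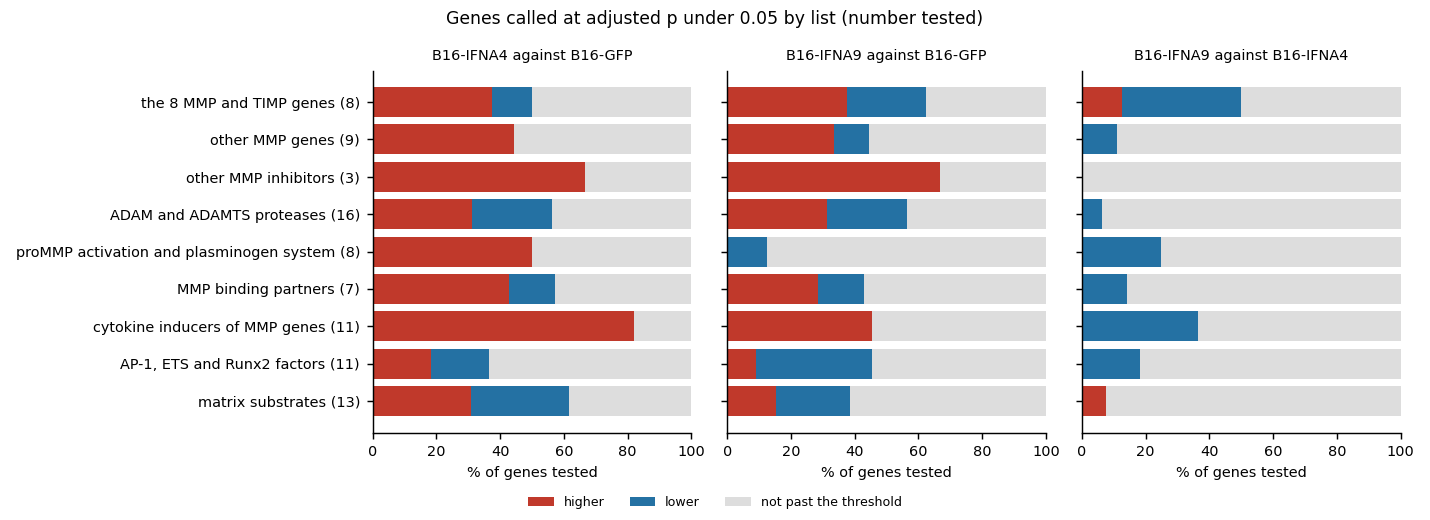
Share of the genes tested in each list (horizontal axis, %) that were higher, lower or not past an edgeR adjusted p of 0.05, in the 3 comparisons, with the number tested beside each list. The 11 cytokine genes, a list not limited to inducers of MMP genes, have 9 higher in B16-IFNA4 against B16-GFP tumors. The 8 MMP and TIMP genes have 4 called in B16-IFNA9 against B16-IFNA4 tumors, 3 of them lower.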

How the data were processed

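The authors extracted RNA from whole tumors, prepared stranded mRNA libraries and sequenced single-end reads of 50 bases. Per the labels and the study's methods, reads were checked with FastQC 0.11.3, aligned with HISAT2 2.0.4 and counted per gene with summarizeOverlaps. The build is given as mm10 in the submitters' notes and as mm11 in the methods. The overlap mode, the strand setting and the handling of reads with several alignments are not given in the sources used here, so genes that overlap or share sequence are uncertain. The deposited values are raw counts per gene. Nothing used here says that tumors of a type came from separate mice, although the labels number them as biological replicates, so p-values measure the spread between these samples.

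Groups and replicate numbers were taken from the sample labels. Counts were analyzed in R 4.3.3 with edgeR 4.0.16. A filter kept the 15926 genes that averaged 10 or more counts, libraries were scaled by TMM (factors 0.768 to 1.10) and the 3 types were compared in 1 quasi-likelihood fit of 30 tumors, with p-values adjusted over all those genes by Benjamini and Hochberg. The study's methods used DESeq2, which was run as an alternative in version 1.42.0. Each standard error came from a gene's fold change and F value, and 95% intervals used the t distribution on the fit's degrees of freedom. Levels are CPM, and log2 CPM values used a prior count of 2. Per-kilobase levels used the union of exons in GENCODE M21 (GRCm38). Of the 39676 gene identifiers, 39495 were found there. Some genes of the lists had no row and were not analyzed here.

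The 8 genes and all lists were chosen with earlier results of these data known. All 8 genes are named. From each other list up to 3 genes with the largest change among those called in a comparison could be named, and for each of the 8 the 3 genes with the highest Pearson correlation of within-type deviations. Further genes of the lists, such as Jun, were named where a count or a level was spelled out. Alternatives were library totals, DESeq2 size factors, DESeq2, no count filter, edgeR's filterByExpr, the 20 tumors compared alone and a block for the replicate number, and beside these a change of at least 2-fold for the counts, a prior count of 0.5 for the ratios, and each tumor left out in turn. The fitting code was checked on data with known changes. The values without B16-GFP tumor 7 and Spearman's rho were added after seeing the data.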

Additional observations from a re-analysis of the deposited data

Results flagged for a closer look

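Each of the 8 genes and both protease to inhibitor ratios were searched in each tumor type for a tumor far from the other 9 by Dixon's criterion, 30 groups in all. It found 4, where chance gives about 1 in 20, or 1.5 of 30. Mmp2 stood at 6.15 log2 CPM in B16-GFP tumor 7, against 7.44 to 8.33 in the others. Mmp13 stood at -0.83 log2 CPM in the same tumor, against 0.75 to 2.11. That tumor had the lowest sums of fibroblast, macrophage, monocyte and endothelial markers and the highest melanocyte sum of its type, and their part in these values was not tested. Mmp9 stood at 5.97 log2 CPM in B16-GFP tumor 8, against 2.33 to 4.07 in the others. Mmp13 stood at 0.70 log2 CPM in B16-IFNA9 tumor 5, against 1.959 to 3.26.

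For 4 genes, effects against B16-GFP tumors differed between the interferon types in the direct edgeR comparison of B16-IFNA9 with B16-IFNA4 tumors. The log2 difference was -0.64 for Mmp3, -1.75 for Mmp8, 0.81 for Mmp12 and -0.71 for Timp1. For Mmp8 all 10 B16-IFNA9 tumors lay below the B16-IFNA4 median, for Timp1 likewise 10 of 10, and for Mmp3 9 of 10. For Mmp12 10 of 10 lay above it.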

How the results depend on the processing

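Of 168 log2 fold changes of the 8 genes under 7 other settings, 149 kept their direction and side of the threshold, 7 lost the call, 6 gained it and 6 changed sign. The cause was not tested unless stated. With library totals in place of TMM, Timp1 (0.40, adjusted p = 0.044) and Timp2 (0.32, 0.041) passed in B16-IFNA4 against B16-GFP tumors, Timp2 passed in B16-IFNA9 against B16-GFP tumors (0.35, 0.031), Mmp3 was lost there (-0.42, 0.11) and against B16-IFNA4 tumors (-0.61, 0.0502), and Mmp12 turned to 0.0026 in B16-IFNA4 against B16-GFP tumors. DESeq2 called Mmp13 lower in B16-IFNA9 than in B16-IFNA4 tumors (-0.79, adjusted p = 0.028), as did the fit of those 20 tumors (-0.77, 0.036). The fit of the 20 B16-IFNA9 and B16-GFP tumors called Timp1 in that comparison (-0.38, 0.018) and lost Mmp3 (-0.48, 0.057), which was also lost without the count filter (-0.48, 0.070). Timp2 between the interferon types changed sign with DESeq2 size factors (-0.0075), DESeq2 (-0.0075), no filter (-0.0017) and 20 tumors (-0.0025).

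Same-numbered tumors did not deviate together (r from -0.27 to 0.30 in the 3 comparisons, with at most 1 of 10 tumors closest to its own number), so the numbers give no pairing. With the replicate block 3 of 8 genes were called in B16-IFNA9 against B16-GFP tumors, where 8626 of 15926 genes were, Mmp3 (-0.50, adjusted p = 0.066) and Mmp9 (-0.62, 0.078) being lost. Mmp3 was also lost between the interferon types (-0.62, 0.063), and Mmp12 was 0.027 in B16-IFNA4 against B16-GFP tumors.

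Requiring a 2-fold change left 2974, 1992 and 450 genes over the 3 comparisons. It left 3 of the 8 genes in the first and 1 of 8 in each of the last 2. The fit of 20 tumors called 4338 genes between the interferon types. Plasminogen system calls were 2 with DESeq2 and with totals in B16-IFNA9 against B16-GFP tumors and 4 with DESeq2 between the interferon types. Calls among AP-1, ETS and Runx2 genes were 3 with totals (1 higher, 2 lower) in B16-IFNA9 against B16-GFP tumors. Between the interferon types other MMP calls were 0 with totals, and matrix substrate calls were 2 with DESeq2.

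Leaving out 1 tumor at a time gave 720 values, of which 662 kept direction and call. In B16-IFNA4 against B16-GFP tumors Mmp12 ran from -0.13 to 0.077, Timp1 from 0.20 to 0.40 (called without B16-GFP tumor 9 or B16-IFNA4 tumor 8) and Timp2 from 0.19 to 0.32 (without B16-GFP tumor 5 or 8). In B16-IFNA9 against B16-GFP tumors Mmp3 ran from -0.61 to -0.38, Mmp9 from -0.96 to -0.34 (lost without B16-GFP tumor 8), Timp1 from -0.47 to -0.31 (called without B16-GFP tumor 2, 5 or 10, B16-IFNA4 tumor 6 or 8, or B16-IFNA9 tumor 10) and Timp2 from 0.19 to 0.32 (called without B16-GFP tumor 5 or 8). Between the interferon types Mmp3 ran from -0.76 to -0.52, Mmp13 from -0.88 to -0.58 (called without B16-GFP tumor 7 or 8, B16-IFNA4 tumor 8 or B16-IFNA9 tumor 10) and Timp2 from -0.023 to 0.042. Among the 8 genes, depth limits Mmp8 most, with 2 to 50 counts per tumor.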

Other observations

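Within tumor types, the other members were set beside the marker sums in the same way as Mmp2, as deviations from the type mean over 30 tumors that share library, depth and scaling. The fibroblast sum was again mostly Col3a1 and Col1a1. Timp2 followed the fibroblast sum with r = 0.79 and the macrophage sum with r = 0.80, and without B16-GFP tumor 7 with r = 0.67 and 0.68. Timp1 did so with r = 0.21 and 0.22 and lay closer to the monocyte sum (r = 0.49, and 0.53 without that tumor). Mmp12, known as a macrophage enzyme, followed the macrophage sum with r = 0.53, which became 0.20 without B16-GFP tumor 7, and Ptprc with r = 0.66, which became 0.44. Mmp13 followed Ptprc with r = 0.65, the T cell or NK cell sum with r = 0.60 and the monocyte sum with r = 0.58. Those became 0.45, 0.38 and 0.37 without B16-GFP tumor 7, and 0.26, 0.21 and 0.10 without the 2 tumors farthest out in each. Mmp13 ran against the adipocyte sum (r = -0.45) and the skeletal muscle sum (r = -0.43). These 2 became -0.72 and -0.68 without B16-GFP tumor 7, and -0.20 and -0.22 without the 2 tumors farthest out in each sum. The highest value of Mmp3 was with the monocyte sum (r = 0.55, and 0.39 without B16-GFP tumor 7). That of Mmp9 was with the keratinocyte sum (r = 0.45, and 0.24 without B16-GFP tumor 7). Mmp8 lay near 0 with both the neutrophil sum (r = 0.07) and the monocyte sum (r = 0.03), at counts too low to read much from a weak value.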
